A study of Mus musculus with 30 samples.

Results

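Besides *Mbd2* and *Mbd3*, the mouse genome holds further genes for proteins of the methyl-CpG binding families. The 7 described here are *Mbd1*, *Mbd4*, *Mbd5*, *Mbd6*, *Zbtb33*, *Zbtb38* and *Zbtb4*, out of 25400 genes in the deposited table of counts. They were chosen by their symbols and not by their values, though earlier results of these data were known. All 7 were found and all 7 had enough reads to be tested, among 16582 genes tested. They were measured by poly(A) RNA-seq in 24 libraries of neuronal progenitor cells (NPCs) derived in vitro from mouse ESCs, 3 libraries for each of 8 lines.

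The lines were WT, the *Mbd3* knockout (MBD3KO), and MBD3KO cells that carried a construct under the strong CAG promoter. The constructs were MBD3a, MBD3dMBD (MBD3a without its MBD domain), MBD2aFL (full-length MBD2a), MBD2a-GR (MBD2a without its glycine-arginine rich repeat), MBD2aR181C (a point mutant of the MBD domain) and MBD2t (a truncated isoform). The deposited columns call the point mutant R64C and the text of the paper R191C. It was taken as MBD2aR181C because no other point mutant is among the lines. Per the methods text, libraries of a line were clones derived individually. MBD2t is the exception, since it was grown as repeats from 1 clone and its spread therefore holds no variation among clones. All construct lines lack endogenous *Mbd3* and differ from WT in that too. MBD2 and MBD3 are alternative subunits of the NuRD chromatin remodelling complex, and the design asks which forms of either can stand in for the lost MBD3.

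The level of *Mbd3* was 149 to 157 CPM (counts scaled to a fixed library total) in WT and 34.2 to 73.8 CPM in MBD3KO, with a log2 fold change of -1.38 ± 0.27 (SE, edgeR adjusted p = 0.000283). *Mbd2* was at 67.0 to 87.2 CPM in the libraries labelled MBD2aFL and at 64.2 to 70.9 CPM in MBD3KO (log2 fold change 0.26 ± 0.21, edgeR adjusted p = 0.508), while the other 3 MBD2 constructs had 253 to 700.2 CPM. The line is therefore given below as the libraries labelled MBD2aFL. By Western blot, the paper reports equal protein levels of MBD2a and of MBD2a without the repeat. That blot was of ESC lines, while the values here are RNA in NPCs. A set of 7 neural progenitor markers summed to 982 to 1113 CPM in WT, but to 160 to 283 CPM in MBD3KO, 194 to 348 CPM in the libraries labelled MBD2aFL and 239.9 to 252 CPM in MBD2t. The summed level of these markers was thus low in these 3 lines, although all libraries are labelled as NPCs. The set includes *Sox2*, and the sum does not show how much each marker added to it. Library totals lay between 27993858 and 49392806 counts, and the 7 genes had between 225 and 4594 counts in a library.

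Methyl-CpG binding proteins fall into families by the fold that contacts DNA. MBD1 and MBD4 use an MBD domain. MBD1 is a transcriptional repressor that works with histone methyltransferases, and MBD4 is a DNA glycosylase that removes the thymine left when a methylated cytosine is deaminated. MBD5 and MBD6 carry an MBD-like domain, are not known to bind methylated DNA, and associate with the BAP1 deubiquitinase complex that acts on histone H2A. ZBTB33 (Kaiso), ZBTB38 and ZBTB4 instead read methylated CpGs with zinc fingers and carry a BTB domain, through which such proteins pair and recruit corepressors.

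The 3 Kaiso family genes moved most between the lines, and since their products read CpGs, the 250 bases before their start sites are shown with each CpG in capitals. The sequences are from RefSeq on GRCm38.p6, 5′ to 3′ on the strand of the gene, and this build is not that of the counts. Promoter windows were found for 6 of the 7 genes.
Zbtb33 promoter, chrX:38189543-38189792, plus strand: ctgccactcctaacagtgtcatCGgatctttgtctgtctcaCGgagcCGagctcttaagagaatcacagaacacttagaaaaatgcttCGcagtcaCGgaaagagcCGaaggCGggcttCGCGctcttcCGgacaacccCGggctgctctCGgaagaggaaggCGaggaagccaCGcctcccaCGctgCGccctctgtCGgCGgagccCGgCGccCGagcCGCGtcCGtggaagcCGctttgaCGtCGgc
Zbtb38 promoter at the distal start, chr9:96731676-96731925, minus strand: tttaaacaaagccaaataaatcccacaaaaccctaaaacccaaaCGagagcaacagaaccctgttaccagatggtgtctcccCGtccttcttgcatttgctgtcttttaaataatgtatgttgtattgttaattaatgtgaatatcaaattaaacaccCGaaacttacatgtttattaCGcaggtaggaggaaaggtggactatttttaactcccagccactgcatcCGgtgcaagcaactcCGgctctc
Zbtb38 promoter at the inner start, chr9:96719851-96720100, minus strand: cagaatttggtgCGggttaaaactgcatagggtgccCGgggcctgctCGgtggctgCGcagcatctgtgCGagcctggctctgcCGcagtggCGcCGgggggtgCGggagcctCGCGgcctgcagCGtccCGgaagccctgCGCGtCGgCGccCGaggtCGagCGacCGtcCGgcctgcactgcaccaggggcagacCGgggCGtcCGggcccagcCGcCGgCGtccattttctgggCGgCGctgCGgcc
Zbtb4 promoter, chr11:69765662-69765911, plus strand: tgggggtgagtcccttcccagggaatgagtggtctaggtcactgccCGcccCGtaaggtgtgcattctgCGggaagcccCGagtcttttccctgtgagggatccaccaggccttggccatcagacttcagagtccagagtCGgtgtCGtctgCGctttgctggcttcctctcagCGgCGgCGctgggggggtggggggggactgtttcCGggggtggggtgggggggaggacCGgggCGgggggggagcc
The *Zbtb33* window held 27 CpGs, more than 91.4% of the 32851 promoter windows of the same length, whose median was 6. The 3 start sites of *Zbtb38* differed, with 6 CpGs before the distal start, 31 before the inner start shown, and 23 before another inner start at chr9:96719446-96719695, not shown. *Zbtb4* had 13 CpGs, 0.487 times the number expected from its C and G content, against 1.11 times in *Zbtb33*. CGCG, a pair of adjacent CpGs that reads the same on both strands, occurred 2 times each before *Zbtb33* and the inner *Zbtb38* start shown, and did not occur in the other 2 windows shown, while 33.8% of all windows held it. The letters TCCTGCNA, to which Kaiso also binds without methylation, were searched on both strands. They were not in any of the 10 windows of the 6 genes, and 4.03% of all windows held them.

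The genes differed in level before any comparison. Per exon length, over all 24 libraries, *Mbd6* had the highest mean level (21.6 reads per kilobase of exon, scaled to the library total, RPKM), followed by *Mbd1* (13.2 RPKM) and *Zbtb33* (11.7 RPKM). *Mbd4* had 3.59 RPKM, *Zbtb4* 2.12 RPKM, *Mbd5* 1.93 RPKM and *Zbtb38* 1.65 RPKM. The plot of levels by library shows the spread of each gene in each line.

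**Figure D1:**
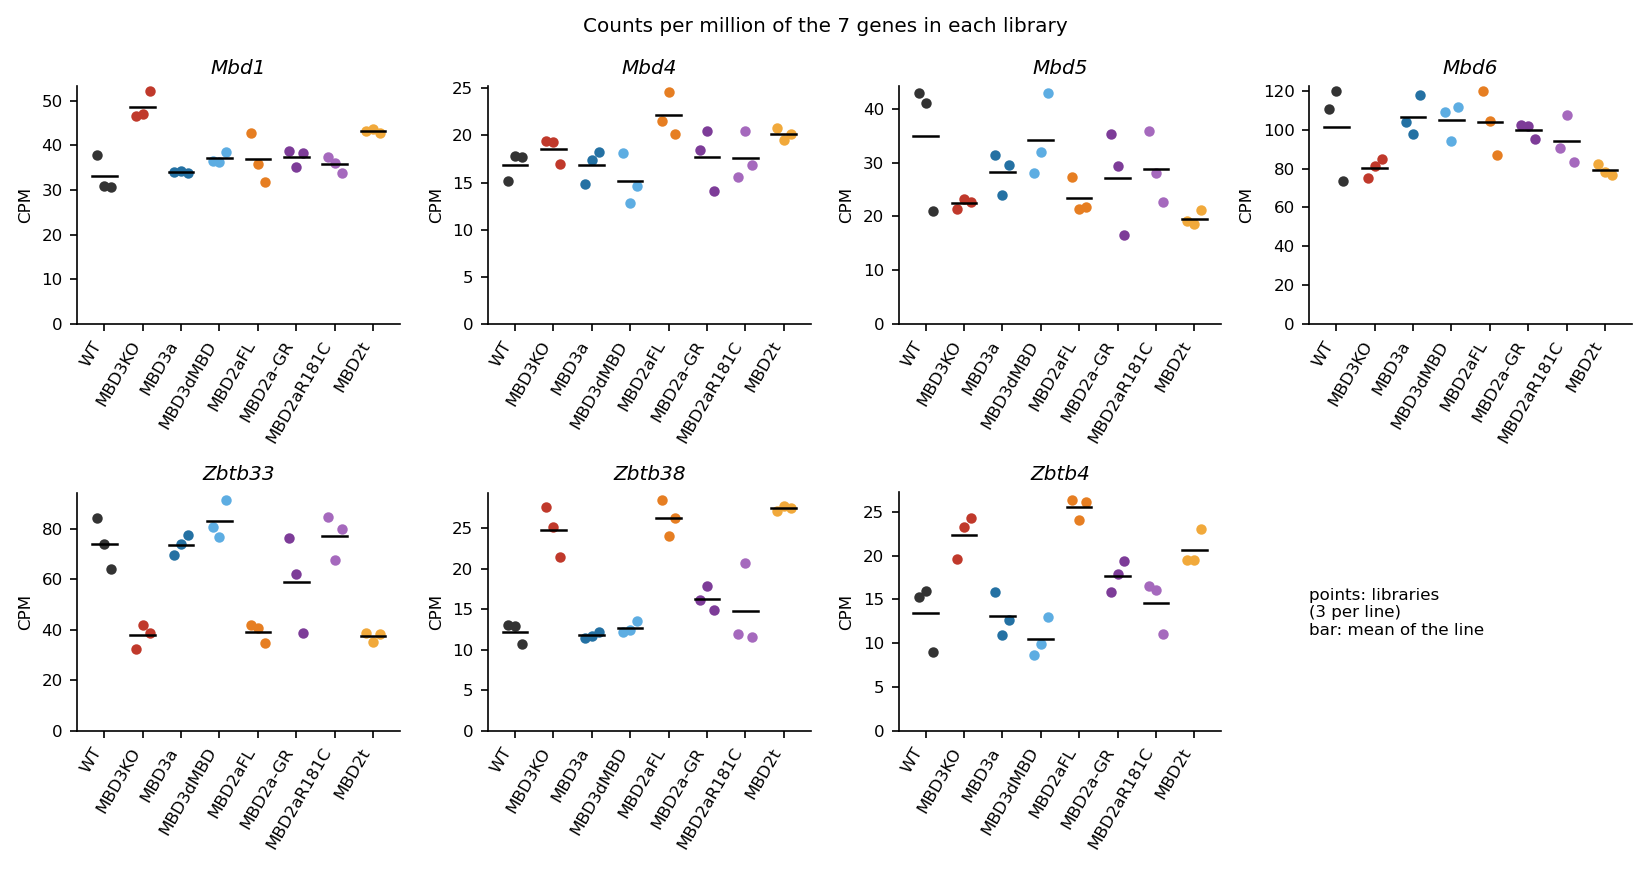
Scaled counts (CPM) of the 7 genes (linear axis from 0), with points for the 3 libraries of each line and a bar for their mean. *Zbtb33* lay at 32.4 to 41.9 CPM in MBD3KO, the libraries labelled MBD2aFL and MBD2t. *Zbtb38* was at least 21.4 CPM in these lines and at most 20.7 CPM in the other libraries. For *Zbtb4* the gap was small, 19.46 against 19.44 CPM. How many of all genes separate these lines in this way was not counted.

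The first question was what the loss of MBD3 did to the genes. *Zbtb33* fell by 0.97 on the log2 scale in MBD3KO against WT, *Zbtb38* rose by 1.02, *Zbtb4* by 0.74 and *Mbd1* by 0.55. *Mbd5* fell by 0.64, a call that rested on few settings. *Mbd4* and *Mbd6* did not pass the test. In all, 5 of the 7 genes passed it (adjusted p under 0.05 in edgeR), 3 higher and 2 lower, beside 60.2% of all genes tested, 29.5% higher and 30.8% lower, so the count was close to that of genes in general. When an absolute log2 fold change above 1 was required as well, *Zbtb38* alone was called, beside 33.8% of all genes.

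*Zbtb33* (chrX:35542970-35550223 on mm9, plus strand) encodes Kaiso, the founding zinc finger reader of methylated CpG pairs. It had 84.4, 73.8 and 64.2 CPM in WT and 32.4, 41.9 and 38.7 CPM in MBD3KO, and the lines did not overlap. The change was -0.97 ± 0.17 (SE, 95% interval -1.34 to -0.61, edgeR adjusted p = 0.000107). Both lines that carried an MBD3 construct were near WT, with 69.4, 73.8 and 77.4 CPM in MBD3a and 80.5, 76.7 and 91.4 CPM in MBD3dMBD. MBD2aR181C was in the same range with 84.5, 67.6 and 79.8 CPM. The libraries labelled MBD2aFL had 41.8, 40.5 and 34.6 CPM and MBD2t 38.5, 35.0 and 38.4 CPM, all within the range of MBD3KO. MBD2a-GR was split, with 76.2 and 62.0 CPM in libraries s16 and s17 and 38.7 CPM in s18. By mean level the order ran from MBD3dMBD through MBD2aR181C, WT, MBD3a, MBD2a-GR and the libraries labelled MBD2aFL to MBD3KO and MBD2t, and each pair of neighbours in it overlapped.

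An antisense gene, *Tmem255a* (annotated as Fam70a), shares 474 exonic bases with *Zbtb33*, and the strand setting of the counting is not given in the sources used here. In WT, *Tmem255a* had 172, 222 and 229 counts beside 3143, 2684 and 2636 counts of *Zbtb33*. In MBD3KO it had 63, 874 and 615 counts beside 1135, 1894 and 1465 counts of *Zbtb33*, so in libraries s05 and s06 it was not small beside it. *Tmem255a* did not pass the test between these lines (edgeR adjusted p = 0.108), and how many reads of the shared bases belong to either gene was not tested.

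*Zbtb38* (chr9:96583182-96653250, minus strand) encodes a Kaiso-like repressor that binds the corepressor CtBP. Its levels were 13.04, 12.9 and 10.7 CPM in WT and 27.6, 25.2 and 21.4 CPM in MBD3KO, a log2 fold change of 1.02 ± 0.17 (SE, 95% interval 0.66 to 1.37, edgeR adjusted p = 5.27e-05). The lines did not overlap. MBD3a had 11.48, 11.7 and 12.2 CPM and MBD3dMBD 12.2, 12.4 and 13.5 CPM. The libraries labelled MBD2aFL had 28.5, 23.98 and 26.3 CPM and MBD2t 27.1, 27.8 and 27.5 CPM. Both overlapped with MBD3KO, whereas both MBD3 constructs overlapped with WT. MBD2a-GR lay between with 16.2, 17.9 and 14.8 CPM, and MBD2aR181C had 11.9 and 11.6 CPM in libraries s19 and s21 but 20.7 CPM in s20. In the order of mean levels (MBD2t, MBD2aFL, MBD3KO, MBD2a-GR, MBD2aR181C, MBD3dMBD, WT, MBD3a), MBD3KO and MBD2a-GR did not overlap, and all other neighbours did. Its exons share 1799 bases with the annotated gene *E030011O05Rik* on the same strand, so some reads could belong to either gene.

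*Zbtb4* (chr11:69579414-69597525, plus strand) encodes the third protein of the family, which binds SIN3 corepressors. It had 15.3, 15.98 and 8.94 CPM in WT and 19.6, 23.3 and 24.3 CPM in MBD3KO (log2 fold change 0.74 ± 0.21, SE, 95% interval 0.32 to 1.17, edgeR adjusted p = 0.00429). The lines did not overlap, though WT library s03 was low, and without it the log2 fold change was 0.52 ± 0.19 (SE, edgeR adjusted p = 0.0276). The libraries labelled MBD2aFL were the highest with 26.3, 24.1 and 26.1 CPM, and MBD2t had 19.5, 19.5 and 23.1 CPM. MBD3a had 15.8, 10.97 and 12.6 CPM, MBD3dMBD 8.60, 9.95 and 12.9 CPM, and MBD2aR181C 16.6, 16.02 and 11.01 CPM. MBD2a-GR was between these lines and MBD2t, with 15.8, 17.9 and 19.4 CPM. In the order of means, only MBD2t and MBD2a-GR were neighbours without overlap, and the gap was small, 19.46 against 19.44 CPM.

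Of the summed level of the family, *Zbtb33* held the largest share in every line, and by less in MBD3KO than in WT. In RPKM, *Zbtb33* made up 84.1% ± 1.9 (SD, n = 3) of the 3 genes in WT and 59.4% ± 2.7 in MBD3KO, with 57.9% ± 3.0 in the libraries labelled MBD2aFL and 59.1% ± 1.4 in MBD2t. The share of *Zbtb38* was 6.43% ± 0.35 in WT and 18.2% ± 3.5 in MBD3KO, and that of *Zbtb4* 9.47% ± 1.85 and 22.3% ± 1.4. MBD2a-GR was between with 74.8% ± 7.3 for *Zbtb33*. These shares carry no test of their own, since they combine the values above.

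**Figure D2:**
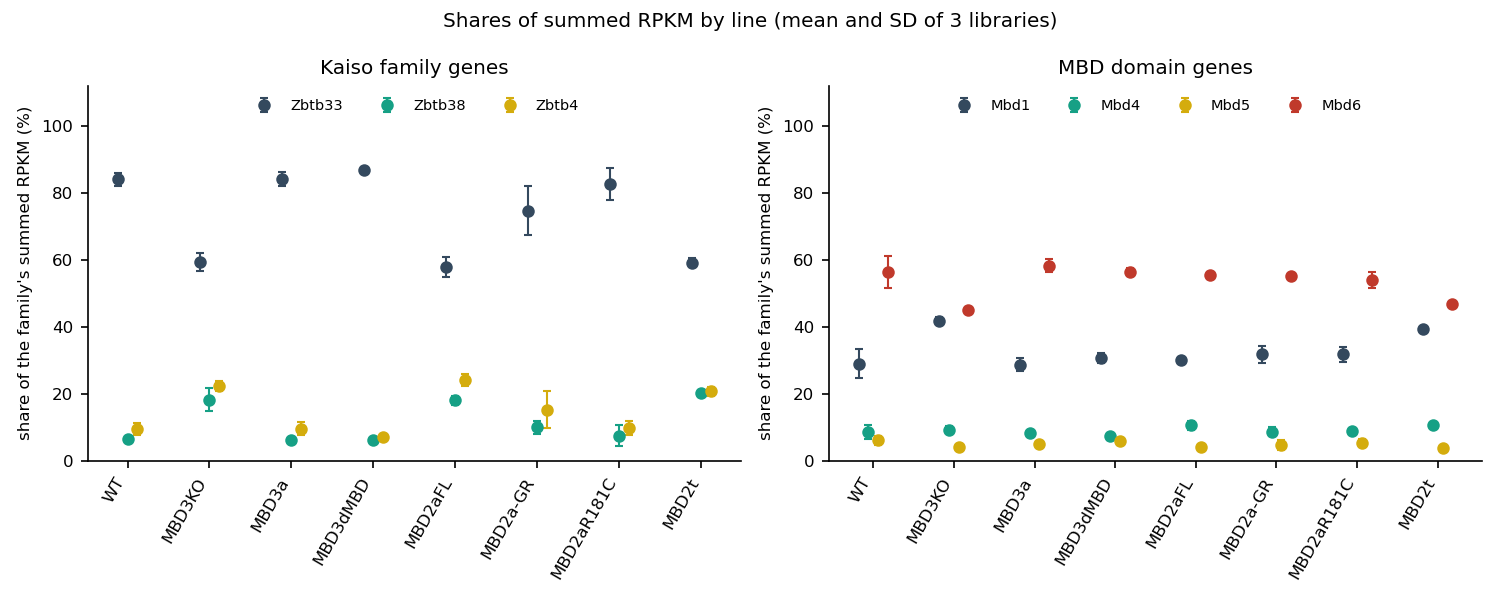
Share of each gene in the summed RPKM of its panel (percent, mean and SD of 3 libraries), with the Kaiso family on the left. The right panel sums *Mbd1*, *Mbd4*, *Mbd5* and *Mbd6* only, so its shares leave out *Mbd2* and *Mbd3*. *Zbtb33* holds 84.1% in WT and 59.4% in MBD3KO, and *Mbd1* holds 29.0% in WT and 41.8% in MBD3KO.

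*Mbd1* (chr18:74427926-74442339, plus strand) had 37.7, 30.9 and 30.7 CPM in WT and 46.5, 47.0 and 52.2 CPM in MBD3KO. The lines did not overlap, and the log2 fold change was 0.55 ± 0.10 (SE, 95% interval 0.34 to 0.76, edgeR adjusted p = 0.000138). MBD2t was also higher than WT with 43.2, 43.6 and 42.7 CPM. The libraries labelled MBD2aFL were mostly below MBD2t, with 42.8, 35.9 and 31.8 CPM. MBD3a had 33.7 to 34.2 CPM, MBD3dMBD 36.2 to 38.5 CPM, MBD2a-GR 35.0 to 38.8 CPM and MBD2aR181C 33.8 to 37.3 CPM. In the order of means, MBD3KO and MBD2t did not overlap, nor did MBD2t and MBD2a-GR, and the neighbours below them did.

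*Mbd4* (chr6:115790715-115803389, minus strand), the glycosylase gene, did not pass the test in MBD3KO against WT. It had 16.9 ± 1.5 CPM (SD, n = 3) in WT and 18.6 ± 1.4 CPM in MBD3KO, with a log2 fold change of 0.14 ± 0.15 (SE, 95% interval -0.18 to 0.45, edgeR adjusted p = 0.452). The highest line was that of the libraries labelled MBD2aFL (21.6, 24.7 and 20.2 CPM) and the lowest MBD3dMBD (18.2, 12.9 and 14.6 CPM). Of the neighbours in the order of means, MBD2t and MBD3KO alone did not overlap. The ratio of the highest to the lowest line mean was 1.45 in *Mbd4*, beside 1.47 in *Mbd1* and 1.35 in *Mbd6*. DESeq2, unlike edgeR, also called *Mbd4* in MBD3dMBD against MBD3KO and in MBD2aFL against MBD2a-GR and MBD2aR181C.

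*Mbd5* (chr2:48805030-49177804, plus strand) and *Mbd6* (chr10:126719012-126726074, minus strand), whose products bind the same deubiquitinase complex, were both low in WT library s03. *Mbd5* had 42.9, 41.1 and 21.1 CPM in WT and 21.3, 23.3 and 22.6 CPM in MBD3KO, so library s03 of WT lay at the level of MBD3KO. The log2 fold change was -0.64 ± 0.26 (SE, edgeR adjusted p = 0.0395), and it passed the test in 2 of 14 other settings, without s03 and with the legacy test. It was lost without any other single library of the 2 lines. Without s03 it was -0.91 ± 0.24 (SE, edgeR adjusted p = 0.00361). *Mbd6* had 111, 120.0 and 73.6 CPM in WT and 75.2, 81.1 and 85.1 CPM in MBD3KO. Its log2 fold change of -0.33 ± 0.15 (SE, edgeR adjusted p = 0.0576) did not pass the test, while without s03 it was -0.52 ± 0.13 (SE, edgeR adjusted p = 0.00168). The 6 pluripotency markers summed to 165 CPM in s03, the highest of the WT libraries, and their part in these values was not tested. All neighbouring lines overlapped in *Mbd6*, and all but MBD3KO and MBD2t in *Mbd5*, whose exons share 136 bases with the antisense gene *Orc4*. *Orc4* had a mean of 61.2 CPM in WT and 43.8 CPM in MBD3KO, with a log2 fold change of -0.48 ± 0.10 (SE, edgeR adjusted p = 0.000356), in the same direction as *Mbd5*. How many reads of the shared bases belong to either gene was not tested.

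The second question was which constructs changed the levels, first against WT. In MBD3a, 0 of the 7 genes passed the test with edgeR, as did 0 at an unadjusted p under 0.05 and 0 with DESeq2, beside 0%, 1.77% and 0% of all genes. MBD3dMBD likewise had 0 by edgeR, 0 at an unadjusted p under 0.05 and 0 with DESeq2, beside 0.0181%, 7.16% and 0.284% of all genes. MBD2aR181C also had 0 by each of these rules, beside 0.0181%, 3.95% and 0.107% of all genes. The 95% intervals still allowed differences, for *Zbtb33* from -0.37 to 0.35 on the log2 scale in MBD3a, from -0.20 to 0.52 in MBD3dMBD and from -0.30 to 0.42 in MBD2aR181C. MBD2a-GR had 0 genes by edgeR and 0 with DESeq2, and 1, *Zbtb38*, at an unadjusted p under 0.05 (log2 fold change 0.42 ± 0.17, SE, edgeR adjusted p = 0.128), beside 8.55% of all genes by edgeR, 13.2% with DESeq2 and 26.6% at an unadjusted p under 0.05.

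In the libraries labelled MBD2aFL, 4 of the 7 genes passed the test against WT, beside 55.5% of all genes. *Zbtb38* rose by 1.10 ± 0.17 (SE, edgeR adjusted p = 3.8e-05), *Zbtb4* by 0.93 ± 0.21 (edgeR adjusted p = 0.000927) and *Mbd4* by 0.39 ± 0.15 (edgeR adjusted p = 0.0356), and *Zbtb33* fell by 0.93 ± 0.17 (edgeR adjusted p = 0.000233) on the log2 scale. The *Mbd4* call was lost in 7 of 14 other settings (edgeR adjusted p up to 0.145), among them without WT libraries s01 or s02 and without MBD2aFL libraries s13 or s14. *Mbd1* had a log2 fold change of 0.15 ± 0.10 (SE, edgeR adjusted p = 0.211) and *Mbd6* of 0.03 ± 0.15 (edgeR adjusted p = 0.859).

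In MBD2t, 6 of the 7 genes passed the test against WT, beside 59.8% of all genes. *Zbtb38* rose by 1.17 ± 0.17 (SE, edgeR adjusted p = 1.31e-05), *Zbtb4* by 0.63 ± 0.20 (edgeR adjusted p = 0.0127) and *Mbd1* by 0.38 ± 0.10 (edgeR adjusted p = 0.00327). *Zbtb33* fell by 0.99 ± 0.17 (edgeR adjusted p = 9.26e-05), *Mbd5* by 0.84 ± 0.26 (edgeR adjusted p = 0.00977) and *Mbd6* by 0.36 ± 0.15 (edgeR adjusted p = 0.042). The *Mbd6* call was held in 2 of 13 other settings, with the legacy test and without WT library s03 (-0.55 ± 0.13, edgeR adjusted p = 0.00112). The *Mbd5* call was lost without WT libraries s01 (edgeR adjusted p = 0.0642) or s02 (0.0537), and that of *Zbtb4* was lost without WT library s03 (0.40 ± 0.19, edgeR adjusted p = 0.0791) or without MBD2t library s24 (0.54 ± 0.23, edgeR adjusted p = 0.0614).

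**Figure D3:**
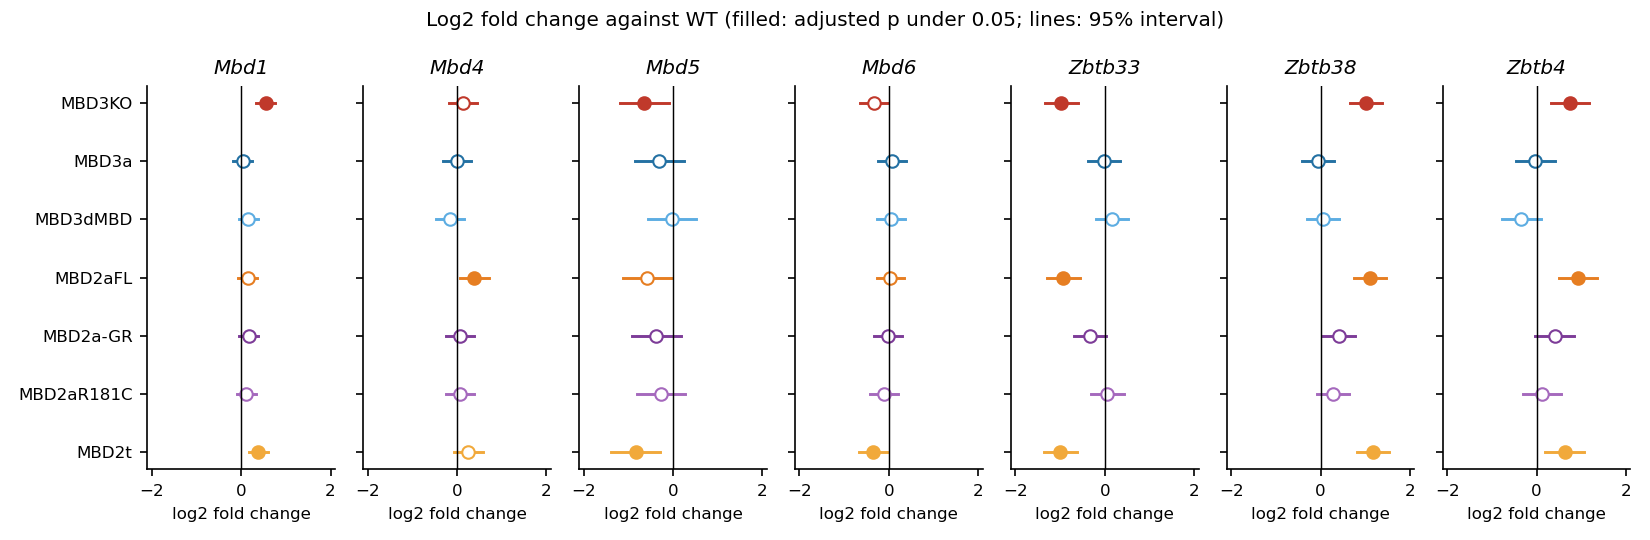
Log2 fold change of each gene against WT in the 7 other lines (x axis), with points for the estimate, lines for the 95% interval and filled points for an edgeR adjusted p under 0.05. In *Zbtb33* and *Zbtb38* the filled points are those of MBD3KO, the libraries labelled MBD2aFL and MBD2t.

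Against MBD3KO, the MBD3 constructs moved the genes in the opposite direction. MBD3a had 5 of the 7 genes past the test, beside 57.8% of all genes, and MBD3dMBD 6, beside 62% of all genes. These comparisons share the MBD3KO libraries with the one above. *Zbtb33* was higher by 0.96 ± 0.18 (SE, edgeR adjusted p = 0.00014) in MBD3a and by 1.14 ± 0.18 (edgeR adjusted p = 1.99e-05) in MBD3dMBD on the log2 scale. *Zbtb38* had log2 fold changes of -1.07 ± 0.17 (SE, edgeR adjusted p = 4.13e-05) and -0.96 ± 0.17 (edgeR adjusted p = 8.54e-05), and *Zbtb4* of -0.77 ± 0.21 (edgeR adjusted p = 0.00381) and -1.09 ± 0.21 (edgeR adjusted p = 0.000178). *Mbd1* fell in both, and *Mbd6* rose in both, by 0.41 ± 0.15 (edgeR adjusted p = 0.0247) and 0.38 ± 0.15 (edgeR adjusted p = 0.0305), calls that were lost in 10 and 11 of 14 other settings (edgeR adjusted p up to 0.167 and 0.275). For MBD3a these included leaving out s04, s05, s07 or s09, and for MBD3dMBD leaving out s04, s05, s06, s10 or s12. *Mbd5* passed the test in MBD3dMBD, higher by 0.62 ± 0.26 (edgeR adjusted p = 0.0469), and lost this call in 11 of 14 other settings, including without s04, s05, s06, s11 or s12 (edgeR adjusted p up to 0.281).

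Among the MBD2 constructs, MBD2aR181C had 4 of the 7 genes past the test against MBD3KO, beside 56.7% of all genes, and MBD2a-GR 3, beside 46.9%. In MBD2aR181C, *Zbtb33* was higher by 1.03 ± 0.17 (SE, edgeR adjusted p = 6.75e-05) and *Zbtb38*, *Zbtb4* and *Mbd1* fell by 0.75, 0.62 and 0.44 on the log2 scale. The *Zbtb4* call was lost without s21 (-0.46 ± 0.22, edgeR adjusted p = 0.0881). In MBD2a-GR, *Zbtb33* was higher by 0.64 ± 0.17 (SE, edgeR adjusted p = 0.00534), and *Zbtb38* and *Mbd1* fell by 0.60 and 0.38. The *Zbtb33* value of MBD2a-GR depended on single libraries, at 0.38 ± 0.17 (edgeR adjusted p = 0.0988) without s16 and 0.87 ± 0.14 (edgeR adjusted p = 5.26e-05) without s18.

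The libraries labelled MBD2aFL had 1 gene past the test against MBD3KO, beside 8.77% of all genes. This was *Mbd1*, with a log2 fold change of -0.40 ± 0.10 (SE, 95% interval -0.61 to -0.19, edgeR adjusted p = 0.0171), a call lost without MBD3KO library s06 (edgeR adjusted p = 0.0942), without MBD2aFL libraries s14 (0.0881) or s15 (0.0617), and with only the 2 lines in the fit (0.144). For *Zbtb33* the difference was 0.05 ± 0.17 (SE, 95% interval -0.32 to 0.41), for *Zbtb38* 0.09 ± 0.17 (-0.26 to 0.43) and for *Zbtb4* 0.19 ± 0.20 (-0.24 to 0.61). MBD2t had 0 of the 7 genes past the test against MBD3KO by edgeR, 0 at an unadjusted p under 0.05 and 0 with DESeq2, beside 0.0302%, 3.44% and 0.0242% of all genes.

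**Figure D4:**
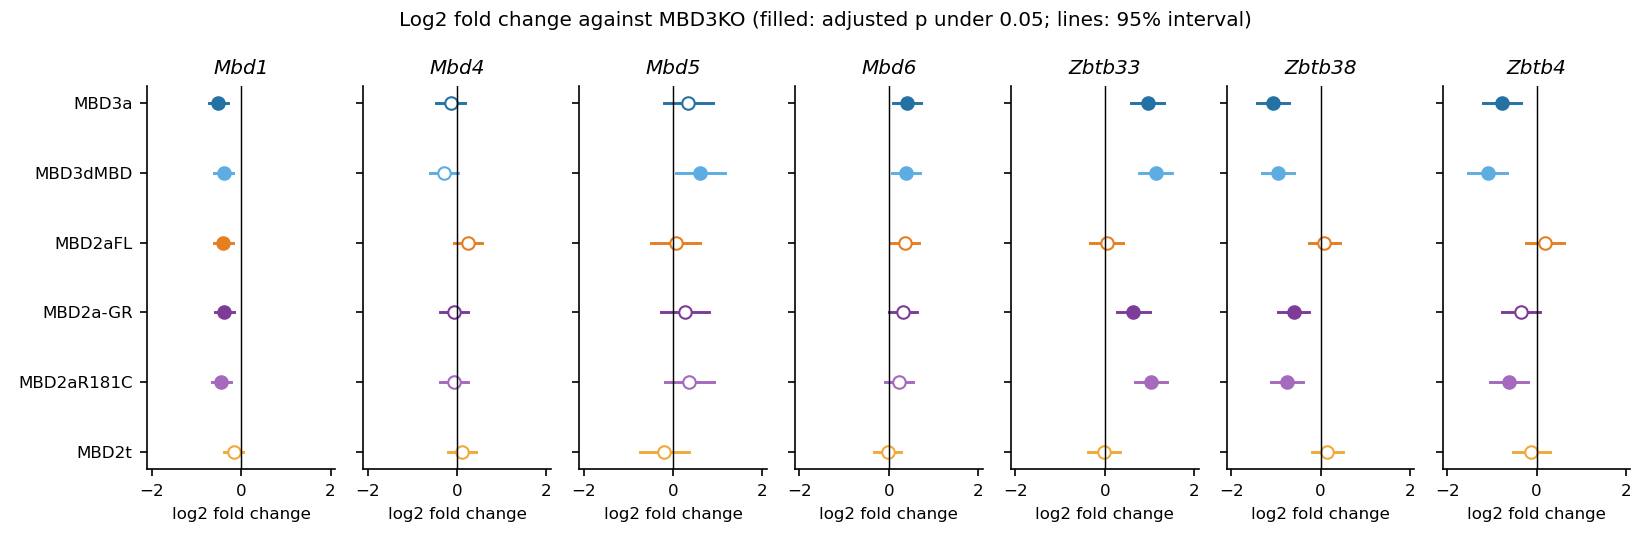
Log2 fold change of each gene against MBD3KO in the 6 lines with a construct (x axis), with points for the estimate, lines for the 95% interval and filled points for an edgeR adjusted p under 0.05. *Zbtb33* is filled and higher in MBD3a, MBD3dMBD, MBD2a-GR and MBD2aR181C, and close to 0 in the libraries labelled MBD2aFL and in MBD2t.

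The third question was whether constructs that differ by a defined change differed directly. Between MBD2aFL and MBD2a-GR, which differ by the glycine-arginine repeat, 2 of the 7 genes passed the test, beside 34.7% of all genes. *Zbtb38* was higher in the libraries labelled MBD2aFL by 0.69 ± 0.17 (SE, edgeR adjusted p = 0.00406) on the log2 scale, without overlap. *Zbtb33* was lower, at -0.60 ± 0.17 (edgeR adjusted p = 0.0125), with overlap by library s18, and this value was -0.33 ± 0.17 (edgeR adjusted p = 0.178) without s16, -0.51 ± 0.20 (edgeR adjusted p = 0.074) without s15, -0.54 ± 0.21 (edgeR adjusted p = 0.0566) without s17 and -0.83 ± 0.14 (edgeR adjusted p = 0.000206) without s18. *Zbtb4* had 0.53 ± 0.20 (edgeR adjusted p = 0.0521).

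Between MBD2aFL and MBD2aR181C, which differ by a point mutation in the MBD domain, 3 of the 7 genes passed the test, beside 50.9% of all genes. *Zbtb33* had a log2 fold change of -0.99 ± 0.17 (SE, edgeR adjusted p = 0.000169), *Zbtb38* of 0.84 ± 0.17 (edgeR adjusted p = 0.00052) and *Zbtb4* of 0.81 ± 0.20 (edgeR adjusted p = 0.00303). For *Mbd1* it was 0.04 ± 0.10 (95% interval -0.17 to 0.26). In both comparisons *Mbd2* itself was lower in the libraries labelled MBD2aFL, by -2.57 ± 0.22 and -1.79 ± 0.22 on the log2 scale, so the changes in the construct and the level of *Mbd2* RNA cannot be told apart. The paper's blot with equal protein for MBD2a and MBD2a without the repeat was of ESC lines, not of these NPCs.

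Between MBD3dMBD and MBD3a, which differ by the MBD domain, 0 of the 7 genes passed the test by edgeR, 0 had an unadjusted p under 0.05 and 0 passed with DESeq2, beside 0%, 3.92% and 0.0907% of all genes. The interval of the difference was -0.19 to 0.54 for *Zbtb33*, -0.25 to 0.48 for *Zbtb38* and -0.76 to 0.13 for *Zbtb4*. Between MBD2t and MBD2aFL, 0 passed by edgeR and 0 with DESeq2, beside 6.18% and 7.92% of all genes. At an unadjusted p under 0.05 there were 2, *Mbd1* (log2 fold change 0.23 ± 0.10, SE) and *Mbd6* (-0.39 ± 0.15), beside 20.1% of all genes.

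In bulk RNA, fewer cells of a type and less RNA per cell cannot be told apart. The 3 lines with low *Zbtb33* also had higher sums of trophoblast and pluripotency markers than WT. The trophoblast list includes *Krt8* and *Krt18*, and the sums do not show how much each marker added. The 6 trophoblast markers summed to 141 to 289 CPM in WT, 1442 to 1969 CPM in MBD3KO, 451 to 1989 CPM in the libraries labelled MBD2aFL and 1189 to 1344 CPM in MBD2t. The 6 pluripotency markers summed to 22.2 to 165 CPM in WT, 288 to 932 CPM in MBD3KO, 327 to 646 CPM in the libraries labelled MBD2aFL and 524 to 659 CPM in MBD2t. Extraembryonic endoderm markers summed to 36.0 to 54.8 CPM in WT and 39.2 to 88.0 CPM in MBD3KO. The sums were 48.3 to 212 CPM in the libraries labelled MBD2aFL and 49.8 to 58.6 CPM in MBD2t. Mesenchymal markers summed to 59.0 to 219 CPM, 70.5 to 137 CPM, 49.5 to 68.6 CPM and 66.4 to 72.9 CPM in the same order. In both of these lists each line overlapped with WT. Each marker of these lists had more than 3 counts in at least 1 library of each line. The part of the marker differences in the levels of the 7 genes was not tested.

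Libraries s18 and s20, each apart from its line in a level given above, also differed in these markers. Library s18 of MBD2a-GR, with the low *Zbtb33*, had a neural sum of 621 CPM, against 1086 and 875 CPM in s16 and s17. Its 6 extraembryonic endoderm markers summed to 853 CPM, against 102 and 79.8 CPM in s16 and s17. Its trophoblast markers summed to 747 CPM, against 151 and 156 CPM, and its pluripotency markers to 364 CPM, against 55.8 and 164 CPM. The 5 mesenchymal markers were low in the whole line, at 27.0, 42.7 and 20.1 CPM. Library s20 of MBD2aR181C, with the high *Zbtb38*, had a neural sum of 812 CPM and a pluripotency sum of 297 CPM, against pluripotency sums of 24.4 and 121 CPM in s19 and s21. Without s20, *Zbtb38* in MBD2aR181C differed from MBD3KO by -1.09 ± 0.14 (edgeR adjusted p = 4.07e-06), beside -0.75 ± 0.17 with it. Other libraries differed in markers too. Library s15, labelled MBD2aFL, had a trophoblast sum of 1989 CPM, against 529 and 451 CPM in s13 and s14. Its *Zbtb38* and *Zbtb4* levels lay between those of s13 and s14, while its *Zbtb33* (34.6 CPM) was the lowest of the line. Library s04 of MBD3KO had a pluripotency sum of 932 CPM, against 499 and 288 CPM in s05 and s06, and the lowest *Zbtb33* and highest *Zbtb38* of its line. The part of these markers in the levels was not tested either.

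**Figure D5:**
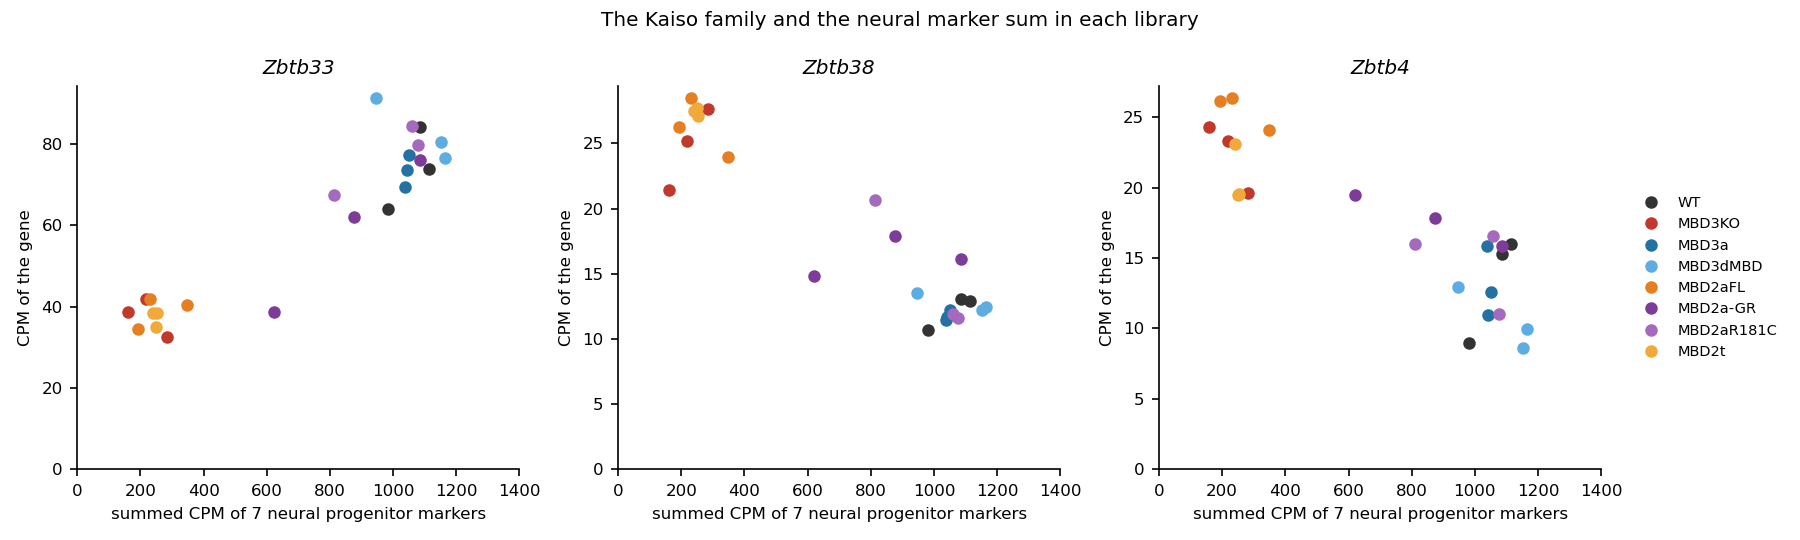
CPM of *Zbtb33*, *Zbtb38* and *Zbtb4* (y axes) against the summed CPM of 7 neural progenitor markers (x axis), with 1 point per library in the colour of its line. The 9 libraries of MBD3KO, MBD2aFL and MBD2t have a neural sum of at most 348 CPM, and library s18 of MBD2a-GR lies between the groups at 621 CPM.

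Further readers of DNA methylation outside the 7 genes described were counted as well. They were *Uhrf1*, *Uhrf2*, *Setdb1*, *Setdb2*, *Baz2a*, *Baz2b* and *Zfp57*. Of these 7 readers, *Setdb2* and *Baz2a* rose and *Uhrf2*, *Baz2b* and *Zfp57* fell in MBD3KO against WT, beside 60.2% of all genes called. The median log2 fold change was -0.06, beside -0.03 over all genes. None of the 5 that passed the test reached an absolute log2 fold change of 1, beside 33.8% of all genes called with that threshold. In the libraries labelled MBD2aFL 2 rose and 2 fell against WT, beside 55.5% of all genes called, and in MBD2t 2 rose and 3 fell, beside 59.8%. Against MBD3KO, 3 rose and 2 fell in MBD3a, 4 rose and 2 fell in MBD3dMBD, 2 rose and 1 fell in MBD2a-GR, and 3 rose and 2 fell in MBD2aR181C, beside 57.8%, 62%, 46.9% and 56.7% of all genes called.

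Partners of the 7 proteins, a list of 27 genes, gave 5 higher and 8 lower in MBD3KO against WT, beside 29.5% higher and 30.8% lower of all genes. The median log2 fold change of the list was -0.16. *Asxl3*, for a subunit that brings BAP1 to chromatin, had 43.6, 37.7 and 11.3 CPM in WT and 1.63, 8.85 and 8.97 CPM in MBD3KO, and fell by 2.24 ± 0.58 (SE, edgeR adjusted p = 0.00288). *Ctbp1*, for the corepressor bound by ZBTB38, had 357, 325 and 293 CPM in WT and 126, 159 and 157 CPM in MBD3KO, and fell by 1.14 ± 0.12 (SE, edgeR adjusted p = 7.51e-07). *Sin3b*, for a corepressor bound by ZBTB4, had 145, 147 and 177 CPM in WT and 516, 427 and 555 CPM in MBD3KO, and rose by 1.68 ± 0.15 (SE, edgeR adjusted p = 1.15e-07).

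In the libraries labelled MBD2aFL, 2 of the 27 partners passed the test against MBD3KO, beside 8.77% of all genes. Both were lower, and *Sin3b* was among them. *Sin3b* had 162, 163 and 250 CPM in these libraries. Its log2 fold changes were 0.29 ± 0.15 (SE, edgeR adjusted p = 0.101) against WT and -1.38 ± 0.15 (edgeR adjusted p = 1e-05) against MBD3KO. *Ctbp1* was at 147 to 166 CPM in these libraries, with a log2 fold change of 0.09 ± 0.12 (SE, edgeR adjusted p = 0.72) against MBD3KO. Against WT, 4 of the 27 partners rose and 10 fell in the libraries labelled MBD2aFL, beside 55.5% of all genes called, and 6 rose and 9 fell in MBD2t, beside 59.8%. Against MBD3KO, 8 rose in each of MBD3a, MBD3dMBD, MBD2a-GR and MBD2aR181C, while 2, 5, 4 and 2 fell, beside 57.8%, 62%, 46.9% and 56.7% of all genes called.

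For each of the 7 genes, the genes with the most alike pattern were found by Pearson's r of log2 CPM over the 24 libraries, among 12813 genes. The values are descriptions without a test, because the libraries share lines and fall into groups. *Zbtb33* was closest to *Zfp397* (r = 0.99), *Zfp658* and *Cblb*, and *Zbtb38* to *Dnajc13* (r = 0.98), *Zfp518a* and *Xk*. *Zbtb4* was closest to *Agrn* (r = 0.92), *Rnf216* and *Cep170b*, and *Mbd1* to *Pcsk7* (r = 0.86), *Serpine2* and *Amigo3*. *Mbd4* was closest to *Fancd2* (r = 0.95), a DNA crosslink repair gene, *Ercc6l2* and *Pole*, the catalytic subunit gene of a replicative DNA polymerase. *Mbd5* was closest to *Usp49* (r = 0.95), *Zbtb20* and *Chd6*, and *Mbd6* to *Cep95* (r = 0.88) and *Psme4*. Among the 7 genes themselves, r was -0.86 between *Zbtb33* and *Zbtb38*, -0.77 between *Zbtb33* and *Zbtb4*, 0.83 between *Zbtb38* and *Zbtb4*, and 0.78 between *Mbd5* and *Zbtb33*.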

How the data were processed

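Per the study's methods, the authors trimmed single-end reads of directional poly(A) libraries, aligned them with STAR to mm9 and summarised them by gene in QuasR. The strand setting is not given in the sources used here. The deposited values are whole-number counts, not normalized. Columns were assigned to lines by name and carry no replicate number. edgeR 4.0.16 (R 4.3.3) was used for filtering by line with filterByExpr, for TMM scaling and for its quasi-likelihood test, in a single fit of 24 libraries with the line as factor and 16 residual degrees of freedom, with Benjamini-Hochberg adjustment over 16582 genes. SE is the absolute log2 fold change over the square root of F. CPM used TMM-scaled totals, log2 CPM a prior count of 1, and RPKM the union of exons. The p-values measure the spread between libraries, and 3 against 3 cannot give an exact permutation p under 0.1. The MBD2t libraries, repeats of 1 clone, also enter the shared estimate of the spread. In a fit without them, *Mbd5* in MBD3KO (edgeR adjusted p = 0.0648) and *Mbd4* in MBD2aFL (0.0553) lost their calls against WT. Against MBD3KO, *Mbd6* in MBD3a (0.0525) and *Mbd5* and *Mbd6* in MBD3dMBD lost theirs. The other calls between the remaining lines held. A level of 3 counts was 0.0607 to 0.107 CPM, for counting error only. Where lines are said not to overlap, the share of all genes without overlap is not given here. The genes and lists were chosen with earlier results of these data known. Partners are named with their values where they passed the test in MBD3KO against WT with an absolute log2 fold change above 1, and so are the 3 most alike genes of each gene where the mean log2 CPM reached 1. Genes that these rules also name but that the text leaves out are not reported here. *Sox1* and the ChIP libraries were not used here. The script for the test was tested on simulated data. Alternatives were other fits, scalings, filters, DESeq2 1.42.0, the study's fold threshold and leaving out each library. The legacy quasi-likelihood test was added after the data had been seen.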

Additional observations from a re-analysis of the deposited data

How the results depend on the processing

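No count or log2 fold change of the 7 genes changed direction past the test in any alternative run. Of the counts of genes past the test, 216 were within 1.5 times of the reported value and 19 were not. The 216 include comparisons in which 0 genes were called in both runs. For single genes, 463 runs left the call as it was, 104 lost it and 1 gained it. Runs with the study's fold threshold are among the 104. With the study's fold threshold, 1 gene was called in MBD3KO, in MBD2aFL and in MBD2t against WT, 1 in MBD3a, 2 in MBD3dMBD, 0 in MBD2aFL, 0 in MBD2a-GR and 1 in MBD2aR181C against MBD3KO, and 0 in MBD2aFL against MBD2a-GR or MBD2aR181C. With only the 2 lines in the fit, 0 were called in MBD2aFL against MBD3KO and 1 against MBD2a-GR, where DESeq2 called 4. Leaving out 1 library gave 0 to 1 in MBD2a-GR against WT, with *Zbtb33* called without s16, 0 to 1 in MBD2aFL against MBD3KO and 1 to 3 in MBD2aFL against MBD2a-GR. With the fold threshold, 33.8% of all genes were called in MBD3KO against WT. For the other counts in this paragraph the share of all genes by the same rule is not given here. Whether those counts are high or low for genes in general therefore cannot be read from them. Scaling by library size only moved the median log2 fold change of all genes in MBD3KO against WT from -0.028 to 0.113, and in MBD3a against MBD3KO from 0.039 to -0.102. No paired analysis was possible because the columns carry no replicate number. At these depths the lowest count of a described gene in a library was 225, and each line had 3 libraries.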
